A study of Mus musculus with 8 samples.

Results

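Activity-regulated genes are genes whose transcription changes within minutes to hours when neurons fire. Expression of 38 of them was compared between dorsal and ventral medial entorhinal cortex (MEC) by RNA-Seq. The set was taken as a list of symbols, all 38 of which were found among the 38553 genes of the deposited expression table. It holds 19 transcription factor genes, 4 genes for other nuclear regulators, 9 genes for signalling feedback and stress proteins and 6 effector genes, whose products act outside the nucleus. A total of 29 members had a mean FPKM (the number of sequenced fragments, scaled by exon length and library size) of at least 1 and enough alignments by the authors' criterion, and were tested among 13674 genes. The donors were 13 male mice, 8 weeks old and of the strain C57BL/6JolaHsd, which carried no transgene and received no treatment named in the labels. From each mouse 1 sagittal slice of 400 µm through the right MEC was cut in cold artificial cerebrospinal fluid, both ends of the MEC were taken separately from it, and the frozen pieces were pooled over 3 or 4 mice. This gave 4 dorsal and 4 ventral libraries. Each pool is bulk tissue, so a smaller share of neurons and less RNA per neuron cannot be told apart. The interval between removal of the brain and freezing is not given in the sources used here, and its part in the levels was not tested.

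In neurons, synaptic input and calcium entry activate kinases that phosphorylate transcription factors already present, among them CREB and SRF with its partners. These switch on immediate-early genes without any need for new protein. Many of the first products are themselves transcription factors of the AP-1, EGR, NR4A and NPAS4 families, which then act on later genes. Others, such as the dual-specificity phosphatases, shut the kinase signal down again, and effectors such as *Arc* and *Homer1* act at the synapse. In cortex these transcripts are widely used as marks of recently active neurons, and they also respond to handling and tissue injury.

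The 8 libraries are named here by the headers of their FPKM columns. Libraries D1, V1, D2 and V2 are dorsal and libraries D3, V3, D4 and V4 are ventral, because the means over these columns matched the deposited regional means within 0.1% for 14953 of 14967 genes. The next best of the 70 possible splits matched 287 genes. The letter of the header therefore names the other region for V1, V2, D3 and D4, and results under the regions that the headers name are given beside the main ones. Every library listed between 20015 and 20979 genes above 0, and its FPKM summed to between 299000 and 341000. The number of fragments behind each library was not used here. The same groups of mice gave dorsal and ventral pools, but no label says which pools share mice. Values below are given in the order D1, V1, D2, V2 for dorsal MEC and D3, V3, D4, V4 for ventral MEC.

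The cyclic AMP response element (CRE), bound by CREB, lies close to the start of several of these genes. Promoters of 30 members, 39 promoters in all, were found in RefSeq's table for GRCm38.p6, and the 250 bases upstream of each start were searched. The palindrome TGACGTCA occurred in 4 members (*Arl4d*, *Btg2*, *Dusp1* and *Maff*), in 10.3% of the members' promoters and in 1.55% of all 32851 promoters. The half-site TGACG, read on either strand and contained in the palindrome, occurred in 19 members, in 59.0% of their promoters against 17.8% of all promoters. The 200 bases before the start of 6 members are shown, 5′ to 3′ on the strand of the gene, with every half-site on either strand in capitals. *Fos* (chr12:85473690-85473889, plus strand), *Nr4a1* (chr15:101266646-101266845, plus strand), *Btg2* (chr1:134079156-134079355, minus strand) and *Dusp1* (chr17:26508473-26508672, minus strand) are among the members whose levels spread most widely between libraries of a region. *Dusp6* (chr10:99263031-99263230, plus strand) and *Ier5* (chr1:155099637-155099836, minus strand) are the members with the smallest p for region. A match to these letters is a description of the sequence and not evidence of binding.
Fos: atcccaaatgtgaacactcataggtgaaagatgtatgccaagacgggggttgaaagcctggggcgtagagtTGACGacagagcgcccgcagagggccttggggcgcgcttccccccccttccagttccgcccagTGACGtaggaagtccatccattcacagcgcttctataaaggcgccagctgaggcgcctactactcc
Nr4a1: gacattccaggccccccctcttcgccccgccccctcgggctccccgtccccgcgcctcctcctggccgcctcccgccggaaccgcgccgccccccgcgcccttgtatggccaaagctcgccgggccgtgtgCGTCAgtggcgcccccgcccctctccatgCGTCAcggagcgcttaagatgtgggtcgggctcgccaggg
Btg2: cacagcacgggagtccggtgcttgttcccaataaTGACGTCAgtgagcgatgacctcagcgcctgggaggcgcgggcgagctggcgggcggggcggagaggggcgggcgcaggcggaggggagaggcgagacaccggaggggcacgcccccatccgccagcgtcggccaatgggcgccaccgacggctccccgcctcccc
Dusp1: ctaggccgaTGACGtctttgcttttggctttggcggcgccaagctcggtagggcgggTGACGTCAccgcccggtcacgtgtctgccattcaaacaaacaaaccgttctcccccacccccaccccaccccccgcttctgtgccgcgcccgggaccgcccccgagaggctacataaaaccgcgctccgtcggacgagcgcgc
Dusp6: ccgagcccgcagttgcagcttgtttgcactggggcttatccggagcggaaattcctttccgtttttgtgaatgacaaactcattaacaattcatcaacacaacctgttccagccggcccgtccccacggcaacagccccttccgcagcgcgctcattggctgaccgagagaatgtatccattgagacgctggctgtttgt
Ier5: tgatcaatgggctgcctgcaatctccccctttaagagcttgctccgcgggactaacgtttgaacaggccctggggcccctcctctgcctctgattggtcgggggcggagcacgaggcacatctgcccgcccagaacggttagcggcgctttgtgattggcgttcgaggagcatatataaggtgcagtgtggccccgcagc
*Fos* and *Nr4a1* each hold 2 separate half-sites, which begin 129 and 66 bases before the start in *Fos* and 69 and 40 bases before it in *Nr4a1*. *Btg2* and *Dusp1* each hold a full palindrome, beginning 166 and 143 bases before the start. No half-site stands in the windows of *Dusp6* and *Ier5*. These 6 members are a selection, and a relation of half-sites to spread or to region was not tested. Within 250 bases, half-sites occurred in *Arl4d*, *Atf3*, *Btg2*, *Dusp1*, *Dusp5*, *Egr2*, *Egr4*, *Fos*, *Fosb* and *Homer1*. The other members with a half-site were *Junb*, *Klf2*, *Klf4*, *Maff*, *Npas4*, *Nr4a1*, *Nr4a2*, *Nr4a3* and *Per1*.

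Of the 29 tested members, 3 were expressed at higher levels dorsally (D>V), and 0 were higher ventrally (V>D). The 3 were *Dusp6*, *Ier5* and *Homer1*, and no transcription factor gene was among them. A gene was called where the adjusted p from limma on log2(FPKM + 1) was under 0.05 and the regional means differed by more than 1.2-fold. By this criterion 294 of all genes tested were D>V, which is 2.15%, and 198 were V>D, which is 1.45%. When every library was rescaled to the same total FPKM the split of all calls was 195 D>V against 201 V>D, and *Homer1* was no longer called. At an unadjusted p under 0.05, limma gave 10 members lower ventrally against 8.71% of all genes, and 0 members higher ventrally against 7.31%. The log2 fold change (ventral minus dorsal, on log2(FPKM + 1)) lay below 0 in 22 of the 29 members and in 51.6% of all genes. Its median was -0.15 over the members and -0.01 over all genes. The lowest dorsal library lay above the highest ventral library for 5 members (*Egr1*, *Ier5*, *Dusp4*, *Dusp6* and *Homer1*) and for 6.17% of all genes. The reverse held for 0 members and for 4.95% of all genes. With regions taken from the headers, 0 members and 1 of all genes were called, and 2 libraries a region, those whose header names their own region, gave 0 calls among all genes. In that subset all dorsal libraries are headed D and all ventral ones V, so region and letter cannot be told apart.

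**Figure D1:**
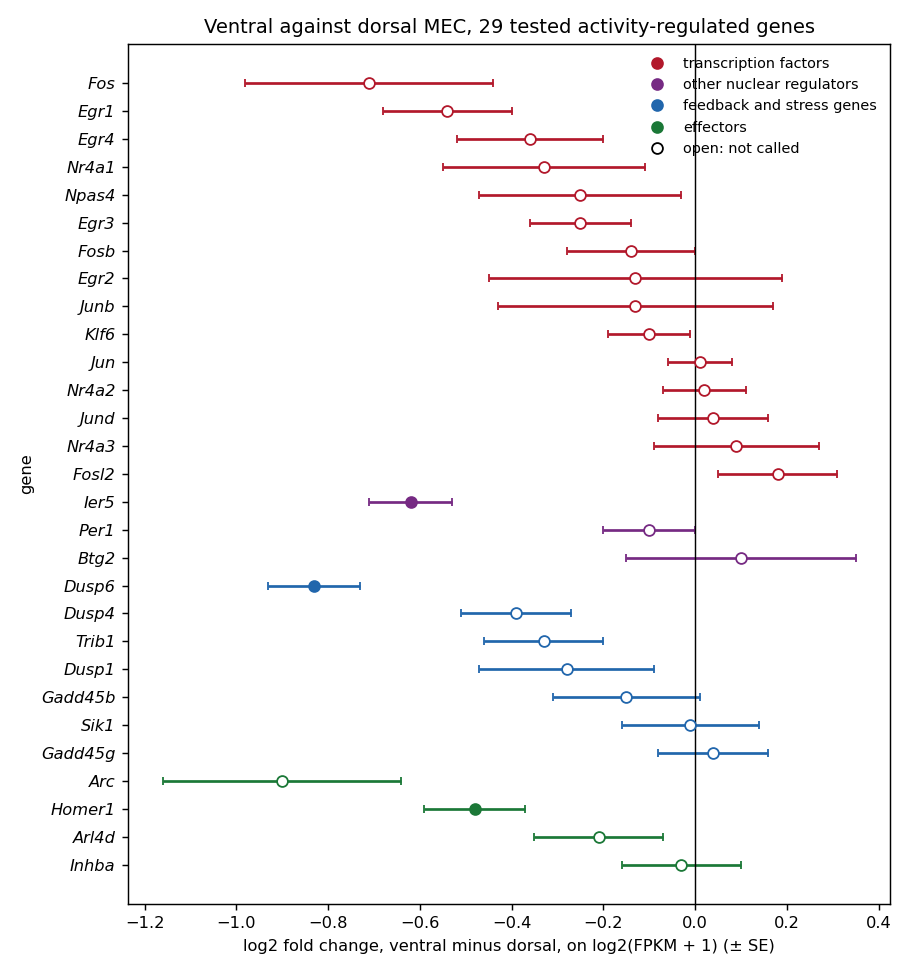
Log2 fold change between ventral and dorsal MEC, on the log2(FPKM + 1) scale, for the 29 tested members. Points are estimates and bars their standard errors from limma over 8 libraries, colours give the role and filled points the 3 called genes. Most points lie left of 0, with *Arc*, *Dusp6*, *Fos* and *Ier5* farthest.

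Among the AP-1 genes, *Fos* was the most different between regions, although it did not pass the test. *Fos* (ENSMUSG00000021250, chr12:85473890-85477273) had an FPKM of 6.88, 2.84, 6.06 and 3.89 in the dorsal libraries and 3.51, 1.19, 3.53 and 2.24 in the ventral ones. The means were 4.92 ± 1.87 (SD, n = 4) dorsally and 2.62 ± 1.13 (SD, n = 4) ventrally, and the ranges overlapped because dorsal V1 lay below the ventral libraries D3 and D4. The log2 fold change was -0.71 ± 0.27 (SE), with an adjusted p of 0.229 in limma. *Fosb* (1.69 ± 0.523 dorsally and 1.41 ± 0.257 ventrally, SD, n = 4) and *Junb* (2.23 ± 1.02 and 1.99 ± 1.0) differed by less than the spread between libraries. *Fosl2*, which encodes Fra-2, had the largest positive log2 fold change of the 29 tested members, 0.18 ± 0.13 (SE), with an adjusted p of 0.569 in limma. *Jun*, whose product pairs with the FOS proteins, was almost level, at 8.25 ± 0.504 dorsally and 8.32 ± 0.377 ventrally, and *Jund* was 3.10 ± 0.316 and 3.23 ± 0.613. The annotated exons of *Jun*, *Junb* and *Jund* each overlap a gene on the opposite strand, and the strand setting of the authors' counting is not given in the sources used here.

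The 4 EGR genes encode zinc finger factors that bind a shared GC-rich element. *Egr1* was the second most abundant transcription factor member, with an FPKM of 84.5, 66.4, 72.6 and 83.3 dorsally and 59.4, 38.7, 56.7 and 57.5 ventrally. All dorsal libraries exceeded all ventral ones, and ventral V3 stood lowest, apart from the other 3. The log2 fold change of *Egr1* was -0.54 ± 0.14 (SE), with an adjusted p of 0.0629 in limma that became 0.0471 without V3. *Egr3* (6.88 ± 0.901 dorsally, 5.64 ± 0.759 ventrally) and *Egr4* (2.71 ± 0.544 and 1.90 ± 0.570, SD, n = 4) lay lower ventrally on average, with adjusted p of 0.302 and 0.292 in limma. *Egr2* differed between ventral libraries more than between regions. Its FPKM was 1.64, 1.46, 2.20 and 2.66 dorsally and 3.25, 0.686, 3.22 and 0.769 ventrally, so that ventral D3 and D4 were above and V3 and V4 below every dorsal library.

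The NR4A genes encode orphan nuclear receptors. *Nr4a2* was by far the most abundant member, at 181 ± 18.7 FPKM dorsally and 182 ± 13.1 ventrally (SD, n = 4). The log2 fold change of *Nr4a2* was 0.02 ± 0.09 (SE). *Nr4a1* had an FPKM of 15.3, 7.76, 13.8 and 8.42 dorsally and 10.1, 5.93, 10.3 and 8.02 ventrally. Within each region D-headed libraries were high and V-headed ones low, the regional ranges overlapped, and the adjusted p for region in limma was 0.531. *Nr4a3* was 5.87 ± 1.37 dorsally and 6.35 ± 1.76 ventrally. *Npas4*, which is induced selectively by calcium entry in neurons, was 4.26, 1.37, 3.68 and 2.70 dorsally against 2.25, 1.82, 2.52 and 2.30 ventrally. Dorsal V1 was its lowest library of all, and the adjusted p for region was 0.644 in limma. *Klf6* was steady at 29.1 ± 1.65 and 27.2 ± 3.77 (SD, n = 4).

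Of the other nuclear regulators, *Ier5* was D>V. *Ier5* (ENSMUSG00000056708, chr1:155096367-155099636), whose product modulates heat shock factor 1, had an FPKM of 12.2, 13.6, 13.2 and 13.7 dorsally and 7.75, 9.91, 7.13 and 8.32 ventrally. The regions did not overlap, and the log2 ratio of the regional means, log2(V/D), was -0.67. In limma the log2 fold change of *Ier5* was -0.62 ± 0.09 (SE) with an adjusted p of 0.00553, and it was called in 8 of 8 fits that left out 1 library. With regions taken from the headers it was 0.18. In the 4 libraries whose header names their own region it was -0.44, with an adjusted p of 0.391 in limma. *Btg2*, an antiproliferative cofactor of mRNA deadenylation, was 4.75, 2.07, 5.68 and 2.04 dorsally and 3.97, 3.12, 4.42 and 3.30 ventrally. The dorsal libraries of *Btg2* thus formed a high pair, D1 and D2, and a low pair, V1 and V2, on either side of all ventral values. The clock gene *Per1* was 10.8 ± 1.48 dorsally and 9.98 ± 0.997 ventrally (SD, n = 4).

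The feedback genes include phosphatases that switch off MAP kinases, and among them *Dusp6* differed most between regions. *Dusp6* (ENSMUSG00000019960, chr10:99263231-99267488), which encodes a cytoplasmic phosphatase of ERK, had an FPKM of 9.64, 7.07, 8.80 and 8.39 dorsally and 4.62, 3.61, 4.66 and 4.38 ventrally. The lowest dorsal library was well above the highest ventral one. For *Dusp6*, log2(V/D) was -0.97 and the log2 fold change -0.83 ± 0.10 (SE), with an adjusted p of 0.00216 in limma. It was called in 8 of 8 fits without 1 library. In the 4 libraries whose header names their own region its log2 fold change was -1.04, with an adjusted p of 0.252 in limma, and with regions taken from the headers it was -0.21. *Dusp4*, a nuclear phosphatase of the same family, was 2.38, 3.00, 2.70 and 2.68 dorsally and 2.08, 1.37, 2.25 and 1.67 ventrally. Its regions did not overlap either, but the adjusted p in limma was 0.119. *Dusp1* was 19.3, 11.6, 19.9 and 14.1 dorsally and 12.2, 9.96, 17.3 and 13.1 ventrally, with wide overlap and an adjusted p of 0.540 in limma; its exons overlap those of *Ergic1* on the opposite strand.

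Of the remaining feedback and stress genes none was called. *Trib1*, which encodes a pseudokinase, was 3.91 ± 0.706 dorsally and 2.89 ± 0.532 ventrally (SD, n = 4), with an adjusted p of 0.242 in limma. *Sik1*, a kinase of CREB coactivators, was 1.67 ± 0.495 and 1.64 ± 0.351. The stress genes *Gadd45b* (2.37 ± 0.698 and 2.02 ± 0.402) and *Gadd45g* (2.59 ± 0.379 and 2.69 ± 0.437) differed by less than the spread between libraries.

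Among the effectors, *Homer1* was D>V and *Arc* had the largest ratio. *Homer1* (ENSMUSG00000007617, chr13:93303757-93404129), a scaffold of the postsynaptic density, had an FPKM of 48.0, 40.0, 34.4 and 40.1 dorsally and 31.3, 31.1, 24.2 and 28.1 ventrally. The ranges came close, since dorsal D2 lay just above ventral D3. The log2 fold change of *Homer1* was -0.48 ± 0.11 (SE), with an adjusted p of 0.0403 in limma. The call held in 2 of 8 fits without 1 library, those without D2 and without V3. Leaving out D1, V1, V2, D3, D4 or V4 gave adjusted p between 0.0658 and 0.106 in limma, and with regions taken from the headers the log2 fold change was 0.04. The gene-level FPKM sums the long, constitutive transcripts and the short transcript that activity induces, so these values do not separate them.

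*Arc* (ENSMUSG00000022602, chr15:74669083-74672570), which drives removal of AMPA receptors from the synapse, had an FPKM of 24.5, 11.4, 25.1 and 17.7 dorsally and 11.0, 6.33, 13.6 and 8.91 ventrally. Dorsal V1 lay below ventral D4, which made the ranges overlap. Mean *Arc* FPKM was 19.7 ± 6.46 dorsally and 9.95 ± 3.08 ventrally (SD, n = 4), a log2(V/D) of -0.98. The log2 fold change was -0.90 ± 0.26 (SE), with an adjusted p of 0.0958 in limma. Without dorsal V1 it was -1.13, with an adjusted p of 0.0397. *Inhba*, a subunit of activin, was 1.24 ± 0.317 dorsally and 1.18 ± 0.163 ventrally. The small GTPase gene *Arl4d* was 1.20 ± 0.326 and 0.902 ± 0.209 (SD, n = 4), with an adjusted p of 0.534 in limma.

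**Figure D2:**
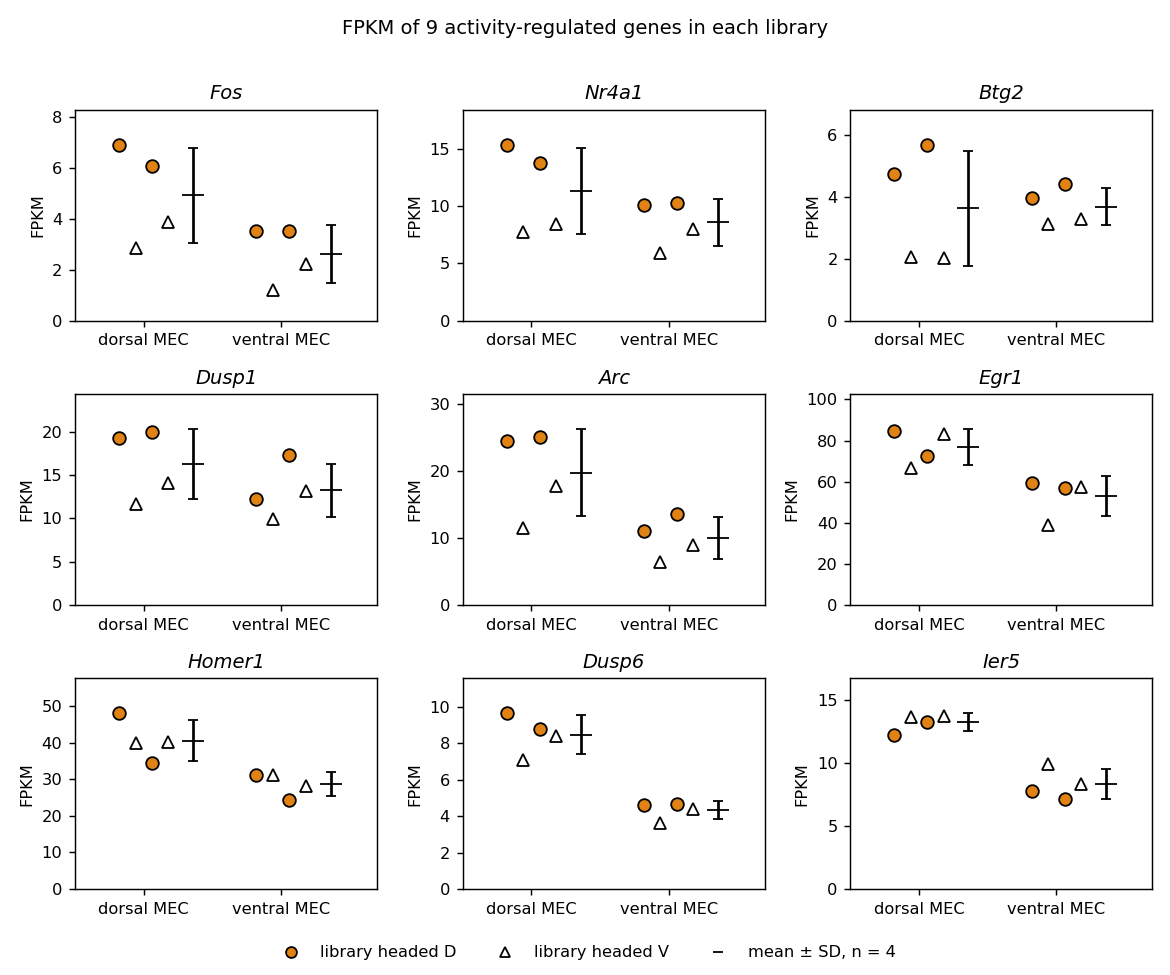
FPKM in each of the 8 libraries for 9 members, with the mean ± SD of the 4 libraries of a region beside them. Filled circles are libraries headed D and open triangles libraries headed V. *Egr1*, *Homer1*, *Dusp6* and *Ier5* separate by region, whereas *Fos*, *Nr4a1*, *Btg2* and *Arc* overlap between regions and separate by header letter within each. *Dusp6* and *Ier5* also separate by letter within each region, *Ier5* with the V-headed libraries higher.

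None of the 9 members below the filter passed its test. They were *Klf2*, *Klf4*, *Maff*, *Atf3*, *Ier2*, *Dusp5*, *Pim1*, *Nptx2* and *Ptgs2*. An exact two-sided permutation test of log2(FPKM + 1) over the 70 splits, whose smallest possible p is 0.0286, gave its smallest p for *Nptx2*, an AMPA receptor clustering pentraxin. *Nptx2* had an FPKM of 0.905, 0.880, 0.917 and 0.486 dorsally and 0.422, 0.579, 0.264 and 0.442 ventrally. Dorsal V2 was its 1 dorsal library within the ventral range, and the exact permutation p was 0.0571 (0.205 adjusted over the 9 genes by the Benjamini-Hochberg method). *Maff*, a small MAF protein gene, was the member below the filter with the clearest higher ventral mean, 0.224 ± 0.0333 dorsally and 0.436 ± 0.163 ventrally (SD, n = 4, exact permutation p = 0.114). *Ptgs2*, which encodes cyclooxygenase 2, was 0.881 ± 0.164 and 0.666 ± 0.233 (exact permutation p = 0.171, n = 4). *Atf3*, a stress-induced factor, was listed at 0 in dorsal V2 and reached at most 0.306 FPKM. The kinase gene *Pim1* was listed at 0 in ventral V4 and reached at most 0.180 FPKM. *Klf2* and *Dusp5* had exact permutation p of 0.114 and 0.0857, and *Klf4* and *Ier2* of 0.714 and 0.486 (n = 4 a region).

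The transcription factor genes were set beside the effector genes, of which *Arc* is itself induced early. These classes were drawn by the role of the product, and the timing of induction was not measured. The median log2 fold change was -0.13 over the 15 tested transcription factor genes and -0.35 over the 4 effectors, or -0.21 over the effectors without *Arc*. It was -0.28 over the 7 feedback genes and -0.10 over the 3 other nuclear regulators. Calls numbered 0 among transcription factors and 1 each among effectors, feedback genes and other nuclear regulators. All were D>V, as were 2.15% of all genes. At an unadjusted p under 0.05, limma gave 4 transcription factor genes lower ventrally (*Fos*, *Egr1*, *Egr3* and *Egr4*) and 2 effector genes (*Arc* and *Homer1*). The share over all genes was 8.71%. These classes are small and were not tested against each other. The median FPKM was 6.11 over the transcription factor genes, 2.64 over the feedback genes and 7.98 over all genes. The 4 effectors fell into a low and a high pair, from 1.05 for *Arl4d* to 34.6 for *Homer1*.

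The spread between libraries of a region was wide in some members and narrow in others. The median SD between libraries of a region, on log2(FPKM + 1), was 0.23 over the transcription factor genes, 0.21 over the feedback genes and 0.19 over the effectors, against 0.14 over all genes. The order of transcription factor genes and effectors changed with the constant and the filter, as given below. *Egr2* had the largest SD of the members, 0.56, which 1.21% of all genes exceeded. It was followed by *Junb* (0.52), *Fos* (0.49), *Arc* (0.46), *Btg2* (0.44), *Nr4a1* (0.39) and *Npas4* (0.37), each exceeded by fewer than 5% of genes. *Jun* was the steadiest member, with an SD of 0.07 that 92.8% of genes exceeded, and *Nr4a2* (0.13), *Ier5* (0.14) and *Klf6* (0.15) were near the median of all genes. The highest library was 2.42 times the lowest for *Fos* in dorsal MEC and 2.96 times in ventral MEC. For *Arc* the same ratios were 2.20 and 2.15, and for *Junb* 3.38 and 4.47. The median ratio in dorsal MEC was 1.56 over the transcription factor genes and 1.74 over the effectors, against 1.25 over all genes. In ventral MEC the medians were 1.58, 1.60 and 1.29.

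**Figure D3:**
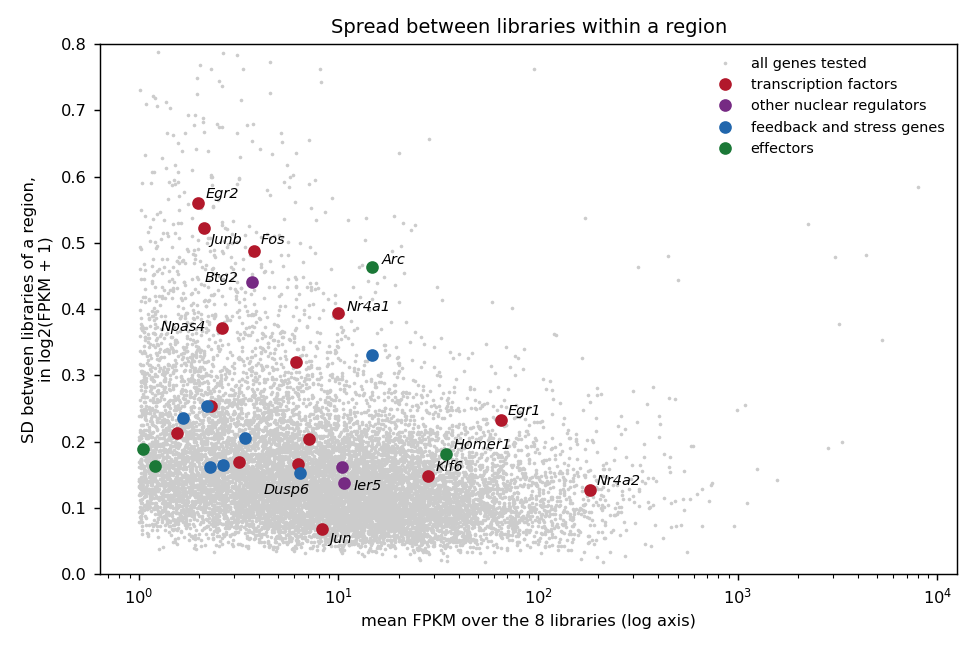
Standard deviation between libraries of a region, on log2(FPKM + 1), against mean FPKM over 8 libraries on a log axis, for all 13674 genes tested (grey, with 76 genes above the axis limit of 0.8 not shown) and for the 29 members coloured by role. *Egr2*, *Junb*, *Fos*, *Btg2* and *Arc* lie in the upper part of the plot, and *Jun*, *Klf6* and *Nr4a2* lie within the grey cloud.

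Libraries tended to deviate in the same direction in many members at once. In dorsal D1, 24 of the 29 members lay above their dorsal mean and in dorsal D2 20 did, while in dorsal V1 and V2 the numbers were 6 and 9. In ventral MEC the numbers were 24 in D3, 19 in D4, 6 in V3 and 15 in V4. Over all genes the share above the regional mean was between 46.6% and 51.4% in every library. Among transcription factor genes, 13 of 15 lay above the mean in D1 and in D3, and 2 of 15 in V1 and in V3. V3 stood farthest from its region, with a median deviation of -0.32 over the transcription factor genes and of 0.02 over the 4 effectors, among which *Arc* was at -0.53. The feedback genes were all below their mean in dorsal V2 and in ventral V3 (0 of 7 above) and all above it in dorsal D2 (7 of 7).

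**Figure D4:**
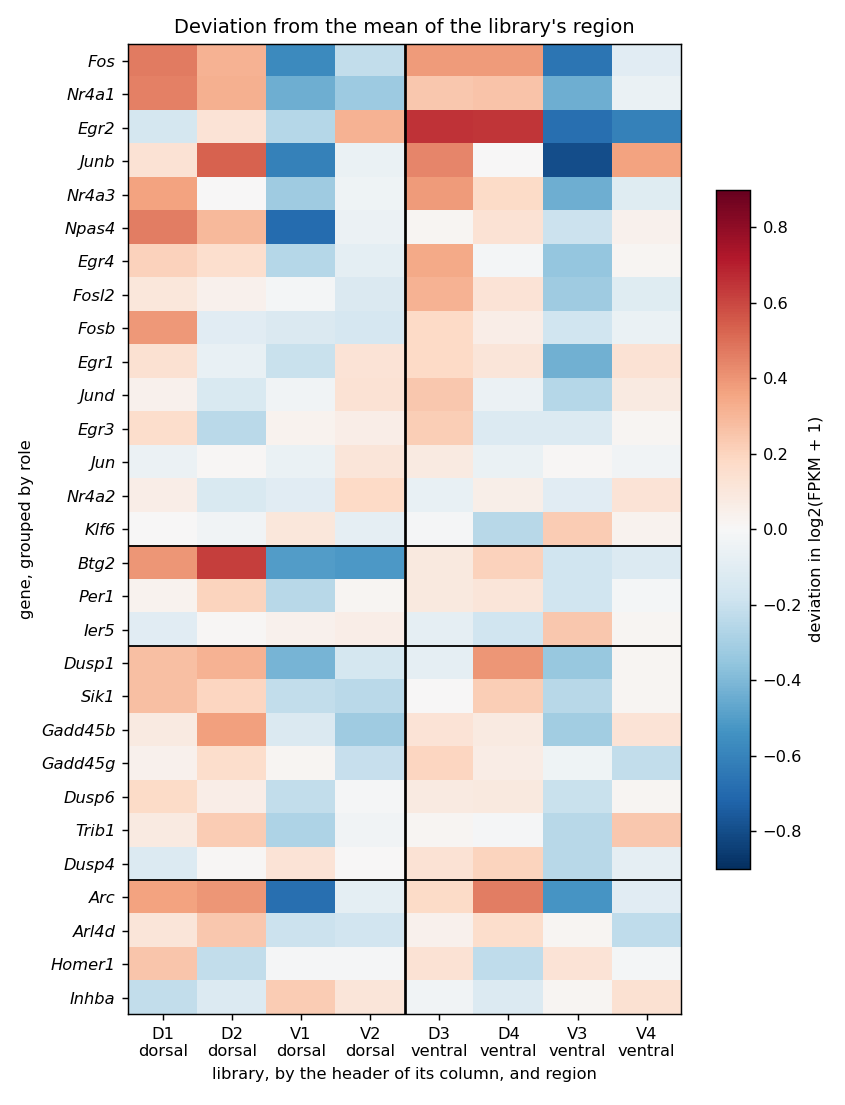
Deviation of each library from the mean of its region in log2(FPKM + 1) for the 29 tested members, red above and blue below, with libraries ordered by region and header letter. The columns of D1 and D3 are mostly red and those of V1 and V3 mostly blue, while *Ier5*, *Klf6* and *Inhba* run the other way in several libraries.

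This pattern followed the letter of the header, a grouping looked at after the values had been seen. Both D-headed libraries lay above both V-headed ones in dorsal and again in ventral MEC for 11 of the 29 members, against 4.18% of all genes. The 11 were *Fos*, *Fosb*, *Fosl2*, *Nr4a1*, *Nr4a3*, *Btg2*, *Per1*, *Dusp6*, *Gadd45g*, *Arc* and *Arl4d*. The opposite order held in both regions for 2 members, *Ier5* and *Inhba*, against 3.61% of all genes. The letter took a median of 55.6% of the sum of squares within regions over the members and 12.2% over all genes. By role the medians were 41.2% for the transcription factor genes, 59.6% for the feedback genes and 74.1% for the effectors. This share has no sign. In the same order, the median of D-headed minus V-headed libraries on log2(FPKM + 1) was 0.29, 0.23 and 0.12. That difference lay above 0 in 12 of 15, 7 of 7 and 2 of 4 genes. The largest differences between D-headed and V-headed libraries were those of *Fos* (0.77 ± 0.13, SE), *Arc* (0.70 ± 0.14), *Btg2* (0.66 ± 0.15) and *Nr4a1* (0.64 ± 0.10) on log2(FPKM + 1). For *Homer1* and *Jun* the same difference was -0.04 and -0.01. With its sign reversed, this difference is the log2 fold change for the regions named by the headers. No member passed an adjusted p of 0.05 for the letter in limma (0 of 29; the smallest was 0.393, for *Nr4a1*). Among all genes 1 did, 0.00731%, which was *Gdf1*, named after its value was seen. At an unadjusted p under 0.05, limma gave 16 members higher in D-headed libraries against 3.7% of all genes, and 2 higher in V-headed ones against 3.33%.

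The letter was then added to the comparison of regions as a covariate, a fit also chosen after the data had been seen. With it, 4 members were D>V in limma, against 2.21% of all genes, and 0 were V>D, against 1.47%. They were *Dusp6* (adjusted p = 0.00138), *Ier5* (0.00352), *Arc* (0.0118) and *Fos* (0.0224), while *Homer1* had an adjusted p of 0.0580 and *Egr1* of 0.0624 in the same fit. The ratios of the regional means within each letter were close for *Arc*, *Fos* and *Dusp6*. For *Arc*, log2(V/D) was -1.02 among D-headed and -0.93 among V-headed libraries. The same ratios were -0.88 and -0.97 for *Fos*, and -0.99 and -0.95 for *Dusp6*. They lay farther apart for *Ier5*, at -0.77 and -0.58. For *Btg2* they were opposite, -0.31 and 0.64, and for *Egr2* 0.75 and -1.50, although no interaction of region and letter passed an adjusted p of 0.05 in limma (the adjusted p was 1.0 for every member). The letter cannot be told apart from any property that the libraries with 1 letter share.

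Other genes known to respond to neuronal activity, and the signalling genes upstream of them, were read from lists of 30 and 40 genes. Of 27 tested genes of the first list, 4 were D>V and 0 V>D, against 2.15% and 1.45% of all genes. The log2 fold change had a median of -0.15 and lay below 0 in 24 of them, against 51.6% of all genes. The D>V genes were *Bdnf*, a neurotrophin, at 12.7 ± 0.868 FPKM dorsally and 8.10 ± 1.01 ventrally (SD, n = 4), *Pcsk1*, a prohormone convertase, at 19.7 ± 1.92 and 13.8 ± 0.703, *Bhlhe40*, a repressor, at 37.2 ± 2.56 and 24.8 ± 1.28, and *Spry4*, an inhibitor of receptor tyrosine kinase signalling, at 5.95 ± 0.442 and 4.19 ± 0.564. Their adjusted p in limma were 0.00687, 0.00942, 0.00181 and 0.0356. The first 3 were called in 8 of 8 fits without 1 library and *Spry4* in 1 of 8. The most abundant of this list, *Rheb* and *Nrn1*, were not called, with log2 fold changes of -0.17 and -0.24. The spread over this list was smaller than that of the members, with a median SD of 0.14. The header letter took a median of 15.0% of its sum of squares within regions. The list also lay at a higher level, with a median FPKM of 10.4 against 3.77 for the members. Its *Cyr61* and *Sgk1* had SDs of 0.55 and 0.54, of which the letter took 91.7% and 3.81% of the sum of squares. Of the 40 upstream genes, 0 were D>V and 1 was V>D, against the same 2.15% and 1.45% of all genes. At an unadjusted p under 0.05, limma gave 6 of the 40 lower ventrally and 3 higher, against 8.71% and 7.31% of all genes. The V>D gene was *Rps6ka2*, a ribosomal S6 kinase activated by ERK, at 4.38 ± 0.778 dorsally and 6.29 ± 0.395 ventrally (SD, n = 4), with an adjusted p of 0.0455 in limma, and it was called in 1 of 8 fits without 1 library. The kinase gene *Camk2a* and the calcineurin subunit gene *Ppp3r1*, the most abundant of the list, had log2 fold changes of 0.14 and -0.30, and the median over the 40 was 0.00.

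Markers of cell types in the dissected tissue were read beside these values. The neuronal markers *Slc17a7* and *Camk2a*, for glutamatergic neurons, and *Gad2*, for GABAergic neurons, were present in every library and were not called. The 8 oligodendrocyte markers were all D>V, with a median log2 fold change of -0.84 and a summed FPKM of 837 to 1100 in dorsal and 461 to 605 in ventral libraries. Among them were *Mbp*, *Mog*, *Mag* and *Opalin*. None of the 8 had both D-headed libraries above both V-headed ones in both regions, and 1 had the opposite order in both. Among 6 tested leptomeningeal fibroblast markers, *Dcn* and *Igf2* were V>D, and the median log2 fold change was 0.44. The list summed to between 923 and 1280 FPKM dorsally and 979 and 1470 ventrally. Most of that sum was *Ptgds*, at 853 to 1350 FPKM a library. Of 8 GABAergic markers *Pvalb* was D>V and *Sst* V>D (summed FPKM 245 to 319 and 327 to 420), and of 7 glutamatergic markers *Slc17a6* was D>V (640 to 790 and 633 to 807). Of the genes listed as markers of dentate gyrus and hippocampal fields, *Wfs1* was D>V and *Fibcd1* V>D (103 to 127 and 85.0 to 96.8), and *C1ql2* and *Dsp* were near 0. The paper shows *Wfs1* as an example of layer-specific expression within the MEC, so here it does not mark hippocampal tissue. Mean FPKM was 64.5 for *Wfs1* and 34.3 for *Zbtb20*, which make up most of these sums, and 1.58 for *Fibcd1*. The 8 endothelial markers, in cells that also express *Klf2*, *Klf4* and *Nr4a1*, were not called, with a median of -0.22 and sums of 33.1 to 37.4 and 25.3 to 31.6. No marker of mural cells (sums of 38.3 to 54.7 and 36.7 to 47.9), microglia (84.4 to 92.3 and 86.6 to 101), astrocytes (347 to 356 and 343 to 389) or red blood cells (4.35 to 8.14 and 4.65 to 6.21) was called. Abundant markers that were not called included *Slco1a4* and *Ly6c1* (endothelial), *Rgs5* and *Myl9* (mural), *Aldoc* and *Slc1a3* (astrocyte), *Ptgds* (leptomeningeal), *Zbtb20* (hippocampal) and *Alas2* and *Hba-a1* (red blood cell). The part of these cell types in the levels of the activity-regulated genes was not tested.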

How the data were processed

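Libraries were made from cDNA amplified from 120 ng of RNA a pool (integrity number 7.1 to 8.5). Per the labels and the methods, the authors aligned paired-end fragments with TopHat2 2.0.8 to the mouse genome with Ensembl release 73 and obtained gene-level FPKM values with Cuffdiff 2. These deposited FPKM values were used as they stand. The deposited tables also hold the authors' fold changes, p-values and q-values, which were not used. In all, 4 columns of per-sample values (fragment numbers and FPKM listed by condition and replicate) were not used because no label ties them to single samples.

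The members and all gene lists were chosen with earlier results of these data known. Named were all members and, of every other list, the called genes and the 2 most abundant, except for some marker genes that are not reported here. Genes with a mean FPKM of at least 1 that the authors marked as tested were fitted with limma 3.58.1 (R 4.3.3, variance trend) on log2(FPKM + 1), 4 dorsal against 4 ventral libraries, with Benjamini-Hochberg adjustment over all 13674 genes. Calls required a ratio of the regional means beyond 0.263 on the log2 scale and an adjusted p under 0.05. The constant of 1 makes fold changes of low genes smaller than their ratios. The p-values measure only the spread between these pools. On simulated data of 13674 genes the fit recovered 191 of 200 genes changed by a log2 fold change of 1, and 4.02% of its calls fell on other genes. The changed genes were drawn above a minimum level, and the simulated noise was independent between libraries. The largest change of a member was -0.90, for *Arc*, so the simulation does not measure how often changes in the members are found. Alternatives were other constants (0.1 and 0.5), other filters (mean FPKM of 0.1 or 5, or no alignment filter), no threshold on the ratio, rescaled or quantile-normalised values, sample weights, no variance trend, the regions named by the headers, and leaving out each library. Added after seeing the data were the header letter as a covariate, 3 subsets of 4 libraries and a replicate block for the header regions. Promoters were taken from RefSeq (GRCm38.p6), coordinates of genes from the deposited tables (GRCm38) and overlaps of exons from GENCODE M21. The symbols *Hbb-bs* and *Hbb-bt* were not matched.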

Additional observations from a re-analysis of the deposited data

Results flagged for a closer look

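In 6 of 76 groups of 4 libraries (38 members in 2 regions) the highest or lowest library stood apart from the other 3 by more than the critical value of Dixon's test, which chance gives in about 1 of 20 groups. The FPKM of *Fosb* was 2.47 in dorsal D1, against 1.39 to 1.47 in the other dorsal libraries. *Egr1* was at 38.7 in ventral V3, and *Gadd45b* at 1.42 in the same library, both below the other ventral libraries. Of members below the filter, *Ier2* was at 1.15 in dorsal D2, *Dusp5* at 0.710 in dorsal V1 and *Nptx2* at 0.486 in dorsal V2. The cause was not tested.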

How the results depend on the processing

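No paired analysis was possible because, for the regions used here, the column headers carry the numbers 1 and 2 in dorsal and 3 and 4 in ventral libraries, and no label ties a library to a group of mice. For the regions named by the headers each number is shared by a D and a V column, and a fit with the number as a replicate block was added after seeing the data. It called 0 members, as without the block, and 1 of all genes. Deviations of same-numbered libraries correlated at 0.14 to 0.20 across genes in the 4 pairs, and 6 of the 8 libraries correlated best with their own number. These deviations were taken from the mean of the libraries with the same letter, so differences between the regions of the deposited means stay in them. Same-numbered libraries lie in 1 region by the deposited means, so the correlations cannot show whether they share mice. Members called D>V numbered 3 as reported, 2 to 4 with 1 library left out, and 0 with the regions named by the headers, with or without the block, and in each subset of 4 libraries (headers that name their own region, headed D, headed V), where at most 3 of all genes were called. Members called V>D numbered 0 in every fit. Leaving out 1 library moved the calls over all genes to between 157 and 341 D>V and between 91 and 191 V>D.

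Other activity-regulated genes called D>V numbered 2 instead of 4 after rescaling and 0 with the header regions and in the 3 subsets. Those called V>D numbered 1 after rescaling and 0 to 1 with 1 library left out, where V3 decided. Upstream genes called V>D, 1 as reported, numbered 0 without the alignment filter, after rescaling, with the header regions and in the 3 subsets, and in 6 of 8 fits with 1 library left out (0 to 1). Upstream genes called D>V numbered 0 to 1 with 1 library left out, where V4 decided.

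With a mean FPKM of at least 5, only 2 genes were left in each small class. The median log2 fold change was then -0.55 for feedback genes, -0.69 for effectors, -0.36 for other nuclear regulators and -0.04 for transcription factor genes. Spread is given here as the absolute deviation from the regional mean (the median over genes, averaged over libraries). For effectors it was 0.236 with this filter against 0.155 in the main setting, and for transcription factor genes 0.134 against 0.172. A constant of 0.1 gave 0.22 for effectors and 0.2 for transcription factor genes, and a constant of 0.5 gave 0.182 for both. In the libraries whose headers name their own region the medians were -0.40 for transcription factors, -0.49 for feedback genes and -0.44 for other nuclear regulators. These values hold the difference between letters together with that between regions. Among libraries headed D the other nuclear regulators were at -0.26, and among those headed V the feedback genes were at -0.15. With the header regions the effectors were at -0.12.

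Members changed sign in some settings, and those that were called or moved by more than 1 SD between libraries are listed. With the header regions, with or without the block, these were *Fosl2* (-0.29), *Nr4a3* (-0.46), *Klf6* (0.14), *Ier5* (0.18), *Btg2* (-0.66), *Gadd45g* (-0.23), *Homer1* (0.04) and *Inhba* (0.24). In the libraries whose headers name their own region they were *Fosl2* (-0.11), *Nr4a3* (-0.37), *Btg2* (-0.56), *Gadd45g* (-0.19) and *Inhba* (0.21), and among libraries headed D *Egr2* (0.54). Smaller changes of sign occurred in *Junb*, *Jund* and *Egr2*, among others. *Homer1* also missed the threshold with no alignment filter, after rescaling or quantile normalisation, with no variance trend and with the letter as a covariate (adjusted p of 0.0554, 0.105, 0.0530, 0.0561 and 0.0580 in limma). Each log2 fold change for the header regions is the difference between D-headed and V-headed libraries with its sign reversed. Those values thus repeat the differences given for the letter. The cause of the other shifts was not tested. Sample weights, the variance trend and the ratio threshold leave the spread between libraries as it is, and no value was computed for them. Depth per library was not used, so the limit it sets for members under 1 FPKM is not given.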
